A study of Mus musculus with 84 samples.

Results

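Astrocyte RNA was read out here for 46 genes of the cell cycle, which were taken from a list of replication and mitosis genes and divided by the phase in which their products act. The list holds 18 genes of DNA synthesis (S phase), 26 genes of G2 and mitosis (called mitotic below) and the 2 G1 cyclins Ccnd1 and Ccnd2. All 46 were found by their Ensembl identifiers among the 48526 genes of the EAE experiment and among the 25773 genes of the subtype experiment. Astrocytes other than the cultured ones had been sorted as CD11B-negative, CD45-negative and ACSA-2-positive cells, where ACSA-2 is an astrocyte surface antigen. They were divided by GLAST, the glutamate transporter encoded by Slc1a3.

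The EAE experiment comprised 66 libraries of C57BL/6J mice. Experimental autoimmune encephalomyelitis (EAE), a model of multiple sclerosis in which immunization against a myelin peptide leads to inflammation of the central nervous system, had been induced in female mice of 10 weeks with MOG peptide in complete Freund's adjuvant and pertussis toxin. Groups were unimmunized controls (C), mice with a limp tail (score 1, E1), mice with paralysed hind legs (score 4, E4) and mice in the chronic stage (Ech). At each stage hindbrain GLASTneg, hindbrain GLASTpos and spinal cord GLASTneg astrocytes were sequenced, with 5 control libraries per population, 5 or 6 libraries per population and stage, and 4 of hindbrain GLASTpos astrocytes at Ech. The subtype experiment comprised 15 libraries of astrocytes of healthy FVB/N mice, 3 for each of the labels forebrain GLASTneg, forebrain GLASTpos, hindbrain GLASTneg, hindbrain GLASTpos and spinal cord GLASTneg, and 3 libraries of astrocytes grown from the cerebrum of newborn C57BL/6J mice, from which microglia had been shaken off after medium conditioned by L929 cells was added. A library could combine 2 mice, and nothing in the labels ties replicates to separate animals or cultures, so that the tests below measure the spread between libraries, which may be partly technical.

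EAE libraries held 1313682 to 4895220 counts (median 2936680), so that the detection floor of 3 counts lay between 0.613 and 2.28 counts per 1000000 (CPM) on these totals, whereas the CPM levels below use TMM-scaled library sizes. Isolated libraries of the subtype experiment were shallower (416768 to 1269316 counts, floor 2.36 to 7.2 CPM) and cultured ones deeper (2183464 to 8188074 counts, floor 0.366 to 1.37 CPM). Such floors cover counting error only. Markers were checked against the labels. The astrocyte gene Slc1a2 averaged 3760 ± 665 CPM (SD, n = 5) in control spinal cord and 282 ± 95.4 CPM (n = 6) at Ech. The summed level of 5 Hox genes of the cord (Hoxc6, Hoxc8, Hoxa7, Hoxa9 and Hoxc9) lay between 34.1 and 482.9 CPM in every spinal cord library of the EAE experiment and between 0 and 11.0 CPM in its hindbrain libraries. One E1 spinal cord library, replicate 1, carries hindbrain in another label field. It had 179 CPM of these Hox genes and was kept as spinal cord. In the subtype experiment the same sum was 414 to 504 CPM in the libraries labelled hindbrain GLASTneg and 0 in all 3 libraries labelled spinal cord GLASTneg, which goes against both labels. Another listing of the same counts names 12 of the 15 isolated libraries differently. It names the libraries labelled hindbrain GLASTneg as spinal cord GLASTneg, and those labelled spinal cord GLASTneg as hindbrain GLASTpos. For these 6 libraries its names go with the Hox sums. Its remaining names cannot be checked by these Hox genes, and all isolated groups are therefore called by their labels only, as labelled.

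The cell cycle is run by cyclin-dependent kinases and the cyclins that activate them. D cyclins act in G1 and release E2F transcription factors, which turn on the genes of DNA replication: the MCM2-7 helicase and its loaders Cdc6 and Cdt1, the clamp Pcna, and the enzymes that make deoxynucleotides. Genes of G2 and mitosis are expressed later, under the control of the DREAM and MuvB complexes at CHR elements, and many of their promoters also hold CCAAT boxes. These genes encode Cdk1 with the A and B cyclins, the mitotic kinases, the kinesins and kinetochore proteins, and the ubiquitin ligase components that end mitosis. Most astrocytes of the adult brain and cord rest outside the cycle, and some re-enter it after injury.

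Promoters of 37 members were found among the RefSeq promoter windows (300 bases, from 250 before to 50 after the start site, GRCm38.p6). They are shown for the 2 mitotic and the 2 S phase members with the lowest adjusted p in chronic spinal cord among the genes followed in every library, because the results below differ between both classes. Capitals mark CHR elements (TTTGAA or TTCGAA), boxes with the letters CCAAT and E2F core motifs (TTCGCGC or TTGGCGC), each on either strand.
Top2a, mitotic, chr11:99024140-99024439, minus strand: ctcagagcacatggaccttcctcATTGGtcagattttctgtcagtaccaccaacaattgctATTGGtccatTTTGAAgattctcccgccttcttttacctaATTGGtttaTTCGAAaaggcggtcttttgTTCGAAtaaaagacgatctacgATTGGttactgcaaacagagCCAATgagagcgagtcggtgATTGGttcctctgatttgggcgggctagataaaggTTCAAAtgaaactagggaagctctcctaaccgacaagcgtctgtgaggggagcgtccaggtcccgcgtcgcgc
Birc5, mitotic, chr11:117848987-117849286, plus strand: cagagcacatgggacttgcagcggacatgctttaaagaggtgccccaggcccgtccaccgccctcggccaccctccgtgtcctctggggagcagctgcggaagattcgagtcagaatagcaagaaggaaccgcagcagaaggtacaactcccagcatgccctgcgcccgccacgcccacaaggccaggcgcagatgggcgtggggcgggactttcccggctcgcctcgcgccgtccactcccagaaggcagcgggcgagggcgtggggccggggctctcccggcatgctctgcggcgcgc
Mcm5, S phase, chr8:75109259-75109558, plus strand: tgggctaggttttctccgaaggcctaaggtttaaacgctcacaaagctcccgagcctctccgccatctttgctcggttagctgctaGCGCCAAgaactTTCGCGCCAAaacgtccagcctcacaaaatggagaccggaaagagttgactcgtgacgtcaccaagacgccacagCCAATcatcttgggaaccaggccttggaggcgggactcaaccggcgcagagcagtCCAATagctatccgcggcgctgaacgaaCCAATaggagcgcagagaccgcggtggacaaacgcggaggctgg
Mcm6, S phase, chr1:128359656-128359955, minus strand: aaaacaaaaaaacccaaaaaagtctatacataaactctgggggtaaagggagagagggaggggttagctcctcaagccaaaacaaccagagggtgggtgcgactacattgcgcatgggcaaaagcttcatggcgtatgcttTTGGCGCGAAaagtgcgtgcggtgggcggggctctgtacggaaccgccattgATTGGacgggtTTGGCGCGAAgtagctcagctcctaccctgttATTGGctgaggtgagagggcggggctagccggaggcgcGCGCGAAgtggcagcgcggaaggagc

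In the Top2a window 4 CHR elements and 6 CCAAT boxes were found and no E2F core. The windows of Mcm5 and Mcm6 held 3 and 5 E2F core motifs, some of which overlap each other, and no CHR element. No match to any of the 3 motifs was found in the Birc5 window. A CHR element occurred in 17 of 22 mitotic windows (77.3%), in 2 of 15 S phase windows (13.3%) and in 21.7% of the windows of all 27025 genes. An E2F core was present in 18.2% of mitotic, 46.7% of S phase and 4.47% of all windows. CCAAT boxes were found in 86.4% of mitotic and 66.7% of S phase windows, against 41.1% of all. A match describes letters in this window and is not a measured binding site.

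In libraries sorted as spinal cord GLASTneg astrocytes the summed level of the cell cycle genes was lowest in controls and highest at Ech. Population names give the sort here and below, and not the cell make-up of a library, for which markers are given further on. The 25 mitotic genes other than Spag5, which is described separately, summed to 46.6 ± 18.1 CPM (SD, n = 5) in controls, 212 ± 153 at E1 (n = 5), 374 ± 230 at E4 (n = 6) and 999 ± 313 at Ech (n = 6). S phase genes summed to 161 ± 24.4, 229 ± 58.5, 314 ± 68.1 and 467 ± 104 CPM in the same order. Single libraries of the mitotic sum were 54.0, 68.9, 23.5, 33.3 and 53.3 CPM in controls and 219, 44.7, 84.1, 294 and 418 CPM at E1. They ranged from 135 to 712 CPM (median 304.5) at E4 and from 566 to 1414 CPM (median 1001) at Ech. Every Ech library thus lay above every control library, and above every E1 library, while 1 of 5 E1 libraries, replicate 2, was within the control range. With Spag5 included, the 26 mitotic genes summed to 119 ± 28.1, 254 ± 148, 381 ± 232 and 1007 ± 316 CPM in the same order. On that sum the control range was 71.95 to 141.3 CPM. It held E1 replicates 2 and 3 (130.8 and 90.9 CPM) and E4 replicate 5 (138.5 CPM), and no Ech library. These sums are descriptions without a test, and more cycling cells in a library and more RNA per cycling cell cannot be told apart in bulk samples.

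**Figure D1:**
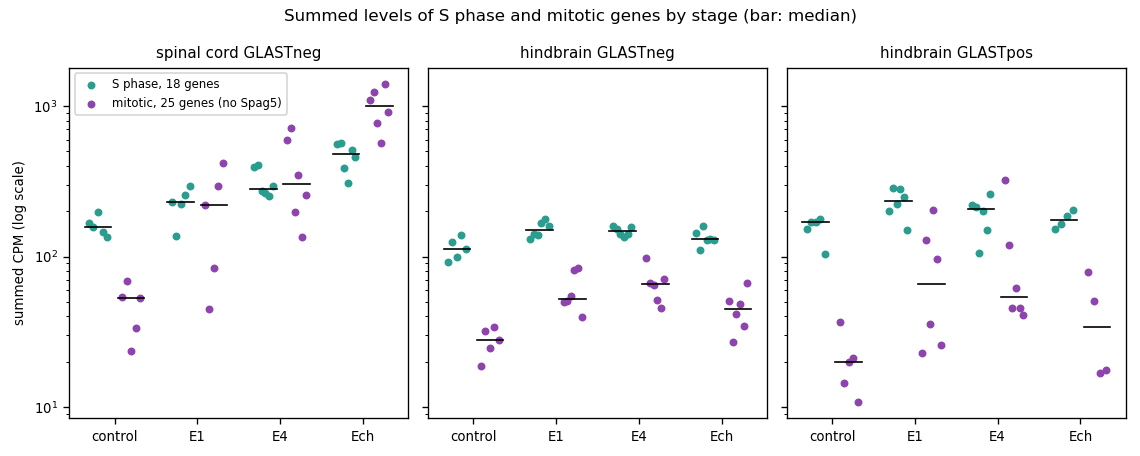
Summed CPM (log scale) of the 18 S phase genes and of the 25 mitotic genes without Spag5 by stage in spinal cord GLASTneg, hindbrain GLASTneg and hindbrain GLASTpos astrocytes, where points are libraries and bars are medians. The spinal cord median of the mitotic sum is 53.3 CPM in controls and 1001 CPM at Ech, and it exceeds that of the S phase genes at E4 and Ech in spinal cord and in no hindbrain group.

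At E1, 8 of the 46 genes were called higher than in controls and none lower, where called means an adjusted p under 0.05 in edgeR's two-sided quasi-likelihood test over all genes and a log2 fold change beyond 1; over all 23324 genes tested the share called was 6.17%. These were the mitotic genes Cdk1, Ube2c, Kif23, Mki67, Birc5 and Top2a, the S phase gene Cdc6 and the G1 cyclin Ccnd1. At E4, 16 were higher (9 mitotic, 6 S phase, Ccnd1) and 1 was lower (Spag5), with 17.9% of all genes called. At Ech, 29 were higher (18 mitotic, 10 S phase, Ccnd1) and again Spag5 was lower, with 14.7% of all genes called. Of all genes, 2.5%, 6.8% and 5.16% were called higher and 3.68%, 11.1% and 9.57% lower at E1, E4 and Ech. The median log2 fold change of mitotic genes was 1.61, 2.18 and 4.17 at these stages and that of S phase genes 0.48, 1.12 and 1.96, while the median of all genes was 0 (with genes absent from controls set to their lower bound, 4.13 for mitotic genes at Ech and 0.35 for S phase genes at E1, and otherwise the same). All 3 comparisons share the 5 control libraries. Library numbers in the labels, of unstated meaning, are above 56 in all spinal cord controls and in 1 of 6 E4 libraries, and with the number split at 56 as a covariate 12 members were called at E4. The count at E1 fell to 5 without control replicate 4 and was 11 without E1 replicate 2.

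Ranges of expression overlapped less with stage. Members with every library above every control library numbered 3 at E1, 13 at E4 and 28 at Ech, where 1.96%, 5.35% and 5.11% of all genes showed this. Detection of mitotic genes followed the same order, since only 1 of 26 mitotic genes was above the floor in all control libraries, 5 were at E1, 15 at E4 and 25 at Ech. For S phase genes the numbers were 9, 6, 12 and 17 of 18, lowest at E1.

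**Figure D2:**
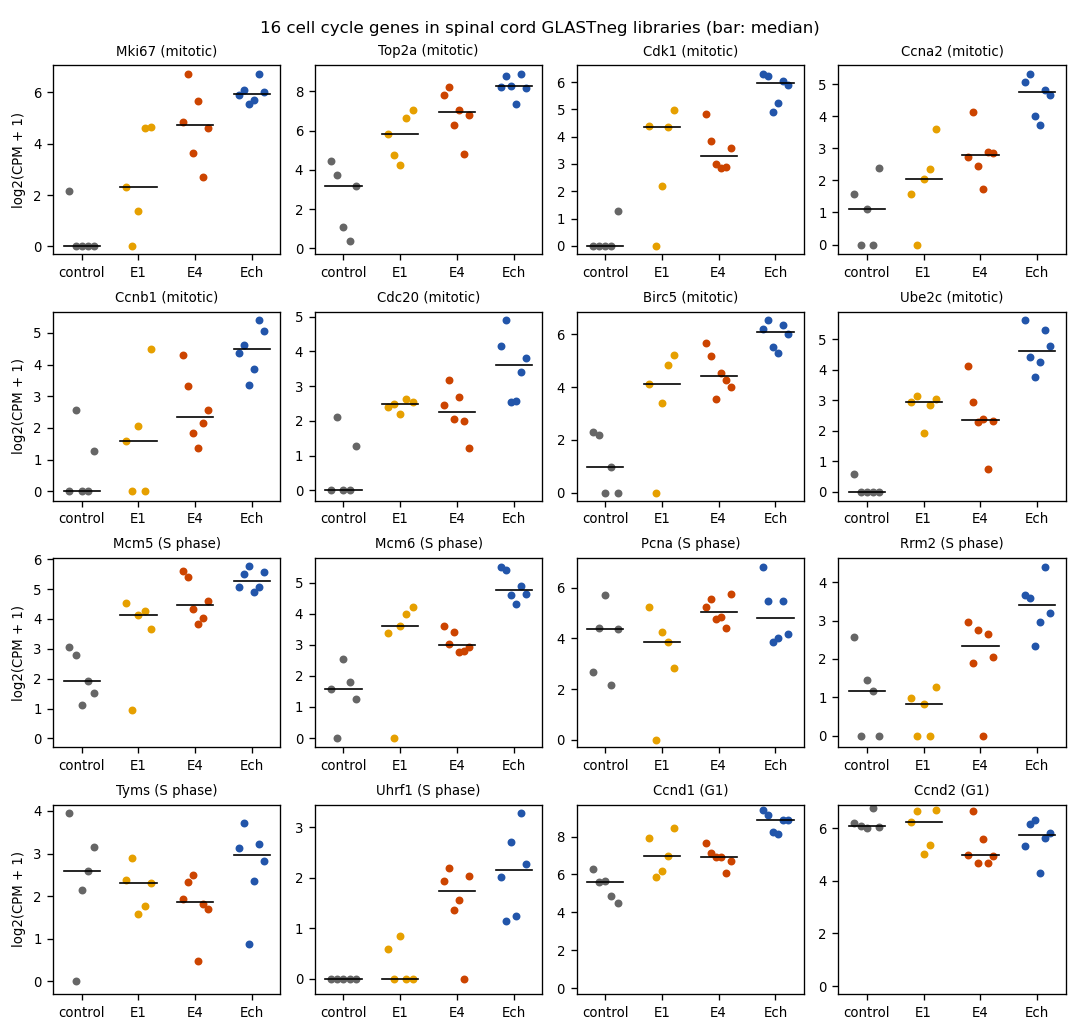
Expression as log2(CPM + 1) of 16 cell cycle genes in spinal cord GLASTneg libraries of controls, E1, E4 and Ech, where points are libraries and bars are medians. All Ech libraries lie above all controls for the 8 mitotic genes and for Mcm5, Mcm6, Uhrf1 and Ccnd1, while Pcna, Rrm2, Tyms and Ccnd2 overlap.

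Among the mitotic genes, Mki67 (ENSMUSG00000031004, chromosome 7, 135689784 to 135716361, minus strand of GRCm38), which encodes the proliferation antigen KI67 that coats mitotic chromosomes, had 3.47, 0, 0, 0 and 0 CPM in control spinal cord. It had 3.98, 0, 1.58, 23.3 and 24.5 CPM at E1, 5.46 to 105 CPM (median 25.6) at E4 and 45.9 to 104 CPM (median 61.2) at Ech. E1 libraries were thus divided, with 2 well above and 3 near or within the control range, and all E4 and Ech libraries were above every control. The log2 fold change was 4.15 (standard error 1.26, adjusted p = 0.026 from edgeR) at E1, 5.92 (1.29, 0.00024) at E4 and 6.74 (1.32, 5.4e-05) at Ech. Standard errors here and below were derived from the fold change and the test's F value, and are rough where counts are few. Top2a (ENSMUSG00000020914, chromosome 11, 98992943 to 99024189, minus strand), the topoisomerase that untangles sister chromatids, had 20.8, 12.5, 1.15, 0.314 and 7.96 CPM in controls and 55.5, 26.4, 17.8, 98.3 and 132 CPM at E1. At E4 it had 27.1 to 297 CPM (median 121) and at Ech 162 to 482 CPM (median 306). Control and E1 libraries overlapped through a single pair, and from E4 on there was no overlap. Log2 fold changes of Top2a were 3.01 (0.77, 0.0058), 4.13 (0.78, 2.3e-05) and 5.34 (0.82, 3.5e-07).

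Cdk1 (ENSMUSG00000019942, chromosome 10, 69335146 to 69352938, minus strand), the kinase that starts mitosis, was not above the floor in any control library (0, 0, 0, 0 and 1.40 CPM, the last from 3 counts). It reached 20.2, 0, 3.56, 19.5 and 30.1 CPM at E1, 6.22 to 27.1 CPM (median 9.05) at E4 and 29.0 to 77.8 CPM (median 61) at Ech. By pooled counts this was 77.2-fold (95% exact counting interval 26.1 to 376.8), 47.1-fold (15.9 to 230.8) and 262-fold (89.3 to 1271) above controls, and the adjusted p from edgeR was 0.0029, 0.0014 and 1.7e-05. Among its cyclin partners, Ccnb1 (cyclin B1) had 0, 4.92, 0, 0 and 1.40 CPM in controls, 1.99, 0, 3.16, 0 and 21.6 CPM at E1, 1.56 to 18.6 CPM (median 4.15) at E4 and 9.30 to 41.1 CPM (median 21.6) at Ech, where the log2 fold change was 4.14 (standard error 1.31, adjusted p = 0.017). Ccna2, cyclin A2, acts in S phase and G2 and had 1.98, 0, 1.15, 0 and 4.21 CPM in controls and 1.99, 0, 3.16, 4.11 and 11.2 CPM at E1. It had 2.33 to 16.6 CPM (median 5.93) at E4 and 12.3 to 39.1 CPM (median 25.8) at Ech, with a log2 fold change of 4.12 (1.14, 0.0056) at Ech. Neither cyclin passed the test at E1 or E4, and both were above every control library at Ech. The call of Ccnb1 was lost without control replicate 1 (3.85) or 4 (3.83). Ccnb2 was likewise called at Ech only (log2 fold change 4.23, 1.45, 0.031). Exosc9 lies antisense to Ccna2, and reads of the pair cannot be told apart, because no source gives whether counting used strand. The same holds for the other members with an annotated antisense overlap, the mitotic genes Mki67, Top2a, Ube2c, Cdc20, Cenpf, Plk1, Kif11, Kif20a, Nusap1, Prc1, Ect2 and Melk, the S phase genes Mcm7, Tk1, Ccne2 and Ezh2 and both D cyclins.

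Components that end mitosis and guard the spindle were measured next. Ube2c, the ubiquitin-conjugating enzyme of the anaphase-promoting complex, had 0.496, 0, 0, 0 and 0 CPM (1 count) in controls. It had 6.72, 7.75, 2.77, 6.17 and 7.31 CPM at E1, 0.682 to 16.4 CPM (median 4.14) at E4 and 12.7 to 48.4 CPM (median 23.7) at Ech. Each of the 5 E1 libraries was above every control, which was not so for most members at this stage. Ratios of pooled counts were 86.6 (15.2 to 3457), 66.7 (11.6 to 2664) and 388 (69.3 to 15340), with adjusted p values from edgeR of 0.0069, 0.0023 and 5e-05. Cdc20, the activator of the same complex, had 0, 3.28, 0, 0 and 1.40 CPM in controls, 4.23, 4.56, 3.56, 5.14 and 4.78 CPM at E1, 1.33 to 8.09 CPM (median 3.81) at E4 and 4.86 to 28.7 CPM (median 11.2) at Ech. Although its E1 and Ech libraries all lay above the controls, Cdc20 was not called at any stage (adjusted p = 0.3, 0.24 and 0.052). Birc5 (survivin), a subunit of the chromosomal passenger complex, had 3.97, 3.61, 0, 0.942 and 0 CPM in controls and 16.4, 0, 9.48, 27.4 and 36 CPM at E1. It had 10.6 to 49.6 CPM (median 20.3) at E4 and 37.7 to 90.8 CPM (median 67.7) at Ech. Log2 fold changes of Birc5 were 3.41 (0.89, 0.0079), 3.89 (0.89, 0.00053) and 5.25 (0.93, 1e-05). E1 replicate 2, in which Birc5, Cdk1 and Mki67 were all at 0, was the library that stood closest to the controls.

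Kif23, a kinesin of the central spindle, had 0.496, 0, 0, 0 and 0 CPM in controls, 0.747, 0.911, 0.395, 14 and 7.31 CPM at E1, 1.59 to 11.3 CPM (median 5.44) at E4 and 5.91 to 32.1 CPM (median 14) at Ech. It was called at all stages, with pooled-count ratios of 66.6 (11.6 to 2664), 72.3 (12.7 to 2889) and 225 (40.0 to 8895). Melk, a mitotic kinase, was at 0 in every control and had 3.48, 0, 0, 4.80 and 0 CPM at E1, 0.779 to 4.51 CPM (median 2.03) at E4 and 1.27 to 7.79 CPM (median 3.92) at Ech. It was called at E4, at least 8.67-fold higher, and at Ech, at least 18.3-fold higher than a control total of 3 counts. Fitted fold changes of genes with so few control counts depend on the prior count and are no bounds. The kinesin Kif20a was called at E4 only (at least 6.23-fold higher), and its adjusted p at Ech was 0.06. The kinetochore protein gene Cenpf was called at E4 (log2 fold change 3.57, standard error 0.89, adjusted p = 0.0014) and Ech (5.18, 0.94, 1.4e-05), with 11.2 to 41.3 and 35.4 to 81.8 CPM against 0, 5.25, 0.86, 0 and 2.81 CPM in controls.

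Besides the B and A cyclins, 7 further mitotic genes were called only at Ech among the stages compared with controls. They were the centromere proteins Cenpa (4.23, standard error 1.28) and Cenpe (3.22, 0.90), the spindle proteins Nusap1 (4.24, 0.93), Tpx2 (3.54, 0.84) and Prc1 (2.82, 0.90), the checkpoint kinase Bub1b (4.19, 1.46) and the polo-like kinase Plk1 (3.21, 0.90), all on the log2 scale and with adjusted p from edgeR between 0.00036 and 0.034. Whether these genes differed between Ech and the earlier stages is given below by the direct comparison. The other mitotic genes, Bub1, Aurka, Aurkb, Kif11, Cdc20 and Ect2, were not called at any stage. Their log2 fold changes at Ech lay between 1.86 for Aurkb, the kinase of the passenger complex, and 3.73 for Cdc20, with adjusted p from 0.052 to 0.46.

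Of the S phase genes, those of the MCM helicase and its loading rose, while several of nucleotide supply did not pass the test. Mcm5 (ENSMUSG00000005410, chromosome 8, 75109569 to 75128439, plus strand) had 7.44, 5.91, 1.15, 2.83 and 1.87 CPM in controls and 22.1, 0.911, 16.6, 18.2 and 11.8 CPM at E1. It had 13.2 to 48 CPM (median 21.1) at E4 and 29.1 to 54.1 CPM (median 38.4) at Ech. E1 replicate 2 was below all controls and the other E1 libraries above them, and E4 and Ech did not overlap with controls. Its log2 fold change was 2.80 (standard error 0.69, adjusted p = 0.0013) at E4 and 3.38 (0.71, 0.00016) at Ech. Mcm6 had 1.98, 0, 4.87, 2.51 and 1.40 CPM in controls, 9.46, 0, 11.1, 15.1 and 17.7 CPM at E1, 5.83 to 11.3 CPM (median 6.92) at E4 and 19.1 to 44.4 CPM (median 26.3) at Ech, where it was called (3.76, 0.99, 0.0033). Mcm6 was also above every control library at E4, although the adjusted p was 0.15. The helicase subunits Mcm2 (3.35), Mcm3 (2.00), Mcm4 (1.24) and Mcm7 (2.22) were called at Ech too, which makes all 6 subunits, and Mcm3, Mcm5 and Mcm7 were called at E4. Mcm7 hosts the microRNA genes Mir25, Mir93 and Mir106b on its strand.

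Cdc6, which loads the helicase, was at 0 in all 5 control libraries and had 1.99, 0, 1.98, 6.85 and 3.37 CPM at E1, 0.888 to 3.63 CPM (median 1.71) at E4 and 1.82 to 7.50 CPM (median 5.08) at Ech. It was at least 13.7-fold, 8.94-fold and 22.7-fold higher than 3 counts over the controls and was called at each stage (adjusted p = 0.021, 0.014 and 0.0044). Cdt1, its partner, was called at E4 (3.68, standard error 1.36) and Ech (4.25, 1.39). Uhrf1, which copies DNA methylation to the new strand, was at 0 in controls, 0.498, 0, 0.79, 0 and 0 CPM at E1, 0 to 3.59 CPM (median 2.38) at E4 and 1.22 to 8.69 CPM (median 3.45) at Ech. This made it at least 8.4-fold higher at E4 (adjusted p = 0.018) and at least 19.2-fold higher at Ech (0.0099). The call at E4 was not made with DESeq2 or with the library number as a covariate. The ribonucleotide reductase subunit Rrm1 rose at Ech (1.12, 0.27, 0.0015).

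The remaining S phase genes were not called at any stage in spinal cord. Pcna, the replication clamp, had 5.45, 20.0, 51.6, 3.45 and 19.6 CPM in controls, 36.3, 0, 17.8, 13.4 and 6.19 CPM at E1, 20.2 to 53.3 CPM (median 32.1) at E4 and 13.3 to 112 CPM (median 29.9) at Ech (log2 fold change at Ech 1.01, standard error 0.62, adjusted p = 0.25). The control spread covered most of this range. Rrm2, the regulated subunit of ribonucleotide reductase, had 4.96, 0, 1.72, 1.26 and 0 CPM in controls, 0.996, 0, 0.79, 0 and 1.41 CPM at E1, 0 to 6.77 CPM (median 4.17) at E4 and 4.02 to 20.1 CPM (median 9.61) at Ech (2.70, 1.11, 0.076). Only the lowest Ech library was within the control range. Tyms, thymidylate synthase, had 14.4, 0, 3.44, 5.02 and 7.96 CPM in controls and 4.23, 6.38, 1.98, 2.40 and 3.94 CPM at E1. It had 0.389 to 4.67 CPM (median 2.66) at E4 and 0.846 to 12.2 CPM (median 6.89) at Ech (0.10, 0.87, adjusted p = 1). All 4 groups overlapped. For Tk1 (thymidine kinase), Gmnn (geminin, the inhibitor of Cdt1), the cyclins Ccne1 and Ccne2 and Ezh2 (the methyltransferase of Polycomb), log2 fold changes at Ech were 0.89, 1.91, 1.26, 0.46 and 0.69, with adjusted p between 0.13 and 0.76.

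Of the D cyclins, which drive G1, only Ccnd1 was called in spinal cord. Ccnd1 (cyclin D1; ENSMUSG00000070348, chromosome 7, 144929931 to 144939925, minus strand) had 75.8, 48.2, 50.2, 28.6 and 21.5 CPM in controls, 238, 58.3, 72.3, 123 and 345 CPM at E1, 66.7 to 205 CPM (median 122) at E4 and 275 to 682 CPM (median 471) at Ech. Control and E1 ranges overlapped in 2 E1 libraries, and no Ech library overlapped with any E4 library. Log2 fold changes against controls were 1.90 (standard error 0.50, adjusted p = 0.008), 1.5 (0.48, 0.017) and 3.36 (0.52, 4.1e-07). The call at E4 was lost without control replicate 4 (1.37) or 5 (1.32). Ccnd2 (cyclin D2) had 73.4, 67.6, 63.4, 108 and 65 CPM in controls, 75.2, 99.4, 31.2, 40.8 and 102 CPM at E1, 24.4 to 99.7 CPM (median 30.3) at E4 and 18.6 to 78.5 CPM (median 52.1) at Ech, and it was not called at any stage (at Ech -0.54, 0.47, 0.47).

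Spag5 (astrin), a spindle protein, went the other way. It had 87.2, 61, 48.5, 81 and 82.8 CPM in control spinal cord, 51, 86.1, 6.72, 28.1 and 37.4 CPM at E1, 2.34 to 9.43 CPM (median 6.41) at E4 and 3.29 to 13.5 CPM (median 6.89) at Ech. E4 and Ech libraries were all below every control, with log2 fold changes of -3.56 (standard error 0.36, adjusted p = 4.1e-13) and -3.18 (0.34, 8.9e-12). The gene (ENSMUSG00000002055, chromosome 11, 78301529 to 78322457, plus strand) ends 511 bases before the start of Aldoc, an astrocyte metabolic gene on the same strand. Aldoc averaged 4124 ± 859 CPM in control spinal cord, 530 ± 120 CPM at E4 and 395 ± 127 CPM at Ech, in the same direction as Spag5. The part of reads from the neighbouring gene in the Spag5 counts was not tested. Without Spag5 the counts of higher genes do not change.

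Stages were also compared with each other. Between E1 and E4, 4.81% of all genes were called (0.832% higher and 3.97% lower at E4), and of the members only Spag5, which was lower at E4 by the measure above (log2 fold change -2.77, standard error 0.35, adjusted p = 5.7e-09). Between E4 and Ech, 3.16% of all genes were called (1.95% higher and 1.22% lower at Ech), and of the members only Ccnd1, which was higher at Ech (1.86, 0.45, 0.0061). The median log2 fold change of Ech against E4 was 1.56 for mitotic genes and 0.83 for S phase genes. Of the members, 9 had an unadjusted p under 0.05 in this comparison, all higher at Ech, with the lowest adjusted p after Ccnd1 for Nusap1 (2.30, 0.78, adjusted p = 0.075), and 6 members had every Ech library above every E4 library, against 1.33% of all genes. Most members were thus not called between E4 and Ech, and the spread between libraries was wide at E4. The class medians lay above the median of all genes, which was 0, but a shift of a class as a whole was not tested. Ccnd1 stayed called when any single E4 or Ech library was left out, with log2 fold changes of 1.69 to 2.03. With the library number of the labels, split at 56, as a covariate no member was called, and with spinal cord libraries fitted alone 4 were.

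Markers of other cells moved with stage in the same libraries. The sum of 9 astrocyte markers was 13510 to 20510 CPM in control spinal cord, 4007 to 23130 CPM at E1, 739 to 2256 CPM at E4 and 805 to 1705 CPM at Ech, and 8 of the 9 were called lower at both E4 and Ech. At E1 the highest astrocyte sum, 23130 CPM, belonged to replicate 2, whose mitotic sum without Spag5 was the lowest. The sum of 6 markers of oligodendrocyte precursor cells was 239.9 to 709 CPM in controls, 223 to 763 at E1, 425 to 862 at E4 and 684 to 2410 at Ech. All 6 were called higher at Ech and none at E1 or E4, and the defining gene Pdgfra averaged 60.6 ± 12.7 CPM in controls and 290 ± 78.1 CPM at Ech. Oligodendrocyte markers (10 genes) summed to 14360 to 41870 CPM in controls, 26910 to 62070 at E1, 30360 to 77680 at E4 and 25390 to 41610 at Ech. Their mean was above that of the astrocyte markers in every group, 22090 against 17530 CPM in controls, 53350 against 1471 at E4 and 32620 against 1306 at Ech. At Ech the mean precursor sum, 1647 CPM, was above the astrocyte mean too. The 5 Hox genes of the cord were all called lower at E4, and 1 of them at E1 and at Ech. Myeloid markers (13 genes) summed to 21.0 to 70.9 CPM in controls and 93.2 to 275.6 CPM at Ech, and at E4 to 180 to 387 CPM apart from replicate 2 with 6984 CPM. T cell markers (9 genes) did not exceed 69.2 CPM in any spinal cord library, and Cd3e was at 0 in all controls. Called higher at E1, E4 and Ech were 1, 5 and 2 of the T cell markers, 5, 11 and 6 of the myeloid markers and 4, 8 and 2 of the oligodendrocyte markers, and none of them was called lower. Of 3 neural stem cell markers, 2 were called higher at Ech, among them Nes (log2 fold change 5.22, adjusted p = 0.0098), and 1 was lower, and their sum was 44.9 to 96.7 CPM in controls and 17.3 to 66.1 CPM at Ech. The immature neuron list (4 genes) summed to 1.43 to 12.4 CPM in controls and 33.2 to 90.8 CPM at Ech, where Dcx was called higher (3.81, 0.000297). At Ech against E4 directly, 3 of 6 precursor, 3 of 4 neuron, 1 of 4 immature neuron and 1 of 5 mural and fibroblast markers were called higher. Lower were 9 of 13 myeloid, 2 of 10 oligodendrocyte, 1 of 9 T cell and 1 of 9 astrocyte markers. The part of each of these cell types in the cell cycle counts was not tested. Without E4 replicate 2, 14 members were called at E4.

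**Figure D3:**
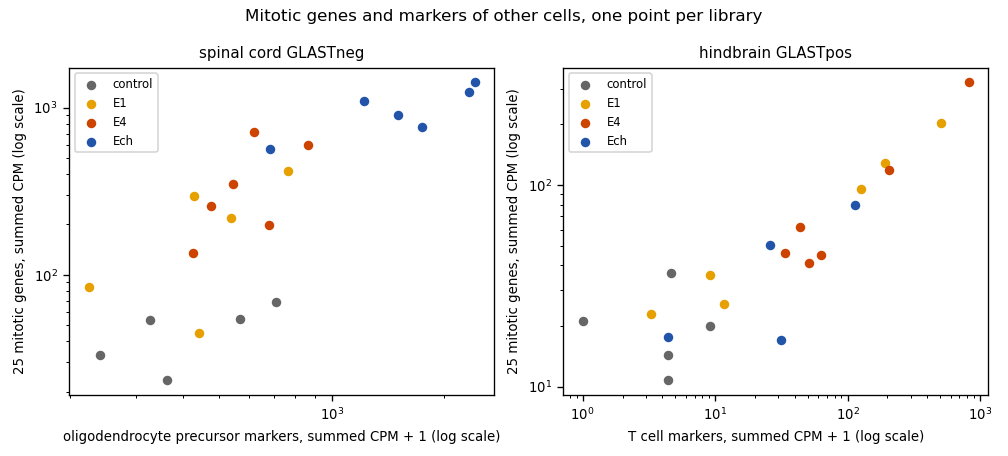
Summed CPM of the 25 mitotic genes without Spag5 (log scale) against the sum of oligodendrocyte precursor markers in spinal cord GLASTneg libraries and against that of T cell markers in hindbrain GLASTpos libraries (summed CPM + 1, log scale), where points are libraries coloured by stage. Both sums are highest in the same Ech library of spinal cord (1414 and 2410 CPM) and in the same E4 library of hindbrain GLASTpos astrocytes (323 and 821 CPM).

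Other genes of the cycle, which are no members, were counted from fixed lists. Of 26 other mitosis genes, 3, 9 and 15 were called higher at E1, E4 and Ech, among them Smc4 of condensin (1.49, standard error 0.30, adjusted p = 0.00012 at Ech) and Incenp of the passenger complex (1.64, 0.37, 0.00043), and none lower. Of 18 other replication genes, 2, 3 and 8 were higher, with DNA ligase Lig1 at 2.15 (0.35, 1.1e-06) at Ech. Among 18 regulators of G1 and E2F, 3 were higher at Ech, Cdk4 (1.60, 0.34, 0.00023), Rbl1 and E2f8, and E2f6 was lower (-1.12, 0.31, 0.0053). Foxm1, a transcription factor of mitotic genes, and the phosphatase Cdc25c were the 2 of 9 regulators of G2 and M that rose at Ech. Genes of CDK inhibitors, which hold the cycle, were called higher too, Cdkn2d at each stage (1.29, 0.27, 0.00014 at Ech) and Cdkn1c (2.68, 0.78, 0.0091), Cdkn2a and Cdkn2c at Ech only, so 4 of 7.

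Fewer of these genes were called in the hindbrain. In hindbrain GLASTneg astrocytes no member was called at E1 or Ech, where edgeR called 0.643% and 0.193% of all genes (0.635% and 0.189% higher, 0.00857% and 0.00429% lower), although 8 and 5 members had an unadjusted p under 0.05 and DESeq2 called 2 and 1. Leaving out control replicate 2 gave 1 call at E1. At E4, where 0.729% of all genes were called (0.707% higher, 0.0214% lower), Mcm5 and Top2a were higher. Mcm5 had 0, 0, 0.666, 0 and 1.12 CPM in controls and 1.60 to 12.3 CPM (median 4.32) at E4, by pooled counts 18.2-fold (6.00 to 90.2, adjusted p from edgeR 0.011). Top2a had 0, 6.44, 0, 1.73 and 0 CPM in controls and 5.91 to 47 CPM (median 16.5) at E4 (log2 fold change 3.49, standard error 0.91, adjusted p = 0.036). Without control replicate 1 or 4 neither call was made (0), and without control replicate 2, 3 or 5 or E4 replicate 1 or 6 only 1 was. The mitotic sum without Spag5 was 18.7 to 34.3 CPM in controls and 45.5 to 97.6 CPM at E4. Markers of immune cells were higher in these E4 libraries too, with a myeloid sum of 43.3 to 137 CPM in controls and 216 to 978 CPM at E4 (5 of 13 markers called higher) and a T cell sum of 6.37 to 17.7 and 23.6 to 153 CPM (1 of 9). E4 replicate 1 had the highest mitotic, myeloid and T cell sums of its group. The part of these cells in the result was not tested.

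In hindbrain GLASTpos astrocytes 5 members were called at E1 (1.49% of all genes), 5 at E4 (2.03%) and none at Ech (1.31%), with 1.27%, 1.66% and 1.21% of all genes higher and 0.214%, 0.369% and 0.0986% lower. At Ech 6 members had an unadjusted p under 0.05 and DESeq2 called 2. Birc5, Cdk1 and Ube2c were at 0 in all 5 control libraries. Birc5 had 0 to 9.18 CPM (median 4.36) at E1 and 0 to 26.4 CPM (median 4.77) at E4, at least 23.3-fold and 47.6-fold higher than 3 counts over the controls. For Cdk1 the range was 0 to 15.7 CPM (median 1.69) at E1 and 0 to 8.69 CPM (median 5.91) at E4, at least 22.2-fold and 27.3-fold higher. Ube2c had 0 to 13.1 CPM (median 0.963) and 0 to 17.2 CPM (median 2.50), at least 18.3-fold and 26.3-fold higher. Each of these genes was thus also at 0 in some EAE libraries, and the groups overlapped. Top2a had 3.27, 0, 0, 0 and 0 CPM in controls, 0.846 to 52.6 CPM (median 16.5) at E1 and 7.89 to 117 CPM (median 12) at E4, with log2 fold changes of 5.15 (standard error 1.02, adjusted p = 0.00094) and 5.85 (1.02, 7.7e-05). Its E4 libraries were all above the controls. Ccnd1 was higher at E1 (2.29, 0.56, 0.014) and Kif23 at E4 (at least 12.1-fold).

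T cell markers rose in the same hindbrain GLASTpos libraries. Their sum was 0 to 8.16 CPM in controls, 2.26 to 509 CPM at E1, 32.7 to 821 CPM at E4 and 3.44 to 113 CPM at Ech, and 4 and 6 of the 9 markers were called higher at E1 and E4. The highest T cell sums at E1, in replicates 4, 2 and 5 (508.8, 191.5 and 125.5 CPM), and at E4, in replicates 1 and 2 (821 and 204 CPM), went with the highest mitotic sums (without Spag5) of their groups, 202.5, 129 and 96.0 CPM and 323 and 119 CPM. Cd3d, a T cell receptor subunit, was at 0 in all controls and averaged 13.9 ± 19.5 CPM at E1. Without the libraries with more than 100 CPM of T cell markers, a choice made after seeing the data, the counts of called members were 0 at E1 and 3 at E4. These were also the libraries with the highest mitotic sums, and fewer libraries remained. The lower counts therefore do not bear on the part of T cells, which was not tested. Without E4 replicate 1 alone 3 were called at E4, and without control replicate 5 or 4 the count at E1 was 2 or 3. Astrocyte markers summed to 19520 to 38250 CPM in the hindbrain GLASTpos libraries, and 1 of 9 was called, higher, at each stage. Leaving out control replicate 1 or Ech replicate 3 or 4 gave 1 call at Ech.

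**Figure D4:**
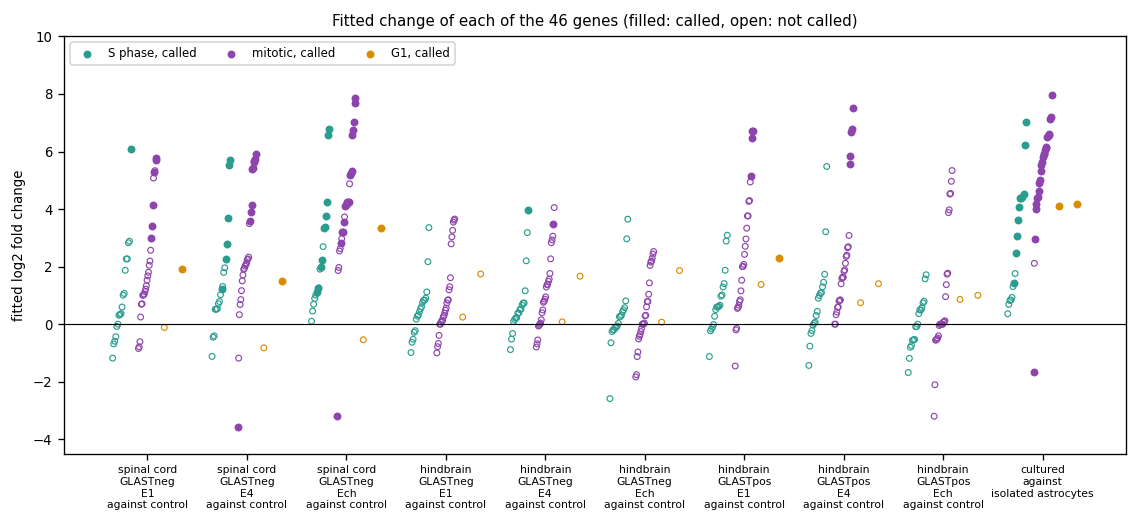
Fitted log2 fold change of each of the 46 genes against controls at each stage and population and in cultured against isolated astrocytes, by class, where filled points are called and open points are not. Called genes number 8, 17 and 30 in spinal cord at E1, E4 and Ech and at most 5 in a hindbrain comparison.

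The difference in chronic response between spinal cord and hindbrain was tested directly as an interaction. Against hindbrain GLASTneg astrocytes, where 6.8% of all genes were called (1.54% with a positive and 5.26% with a negative difference), the change from control to Ech was larger in spinal cord for Uhrf1, Kif23, Cdc6, Mki67, Cenpf, Birc5 and Mcm2, with fitted log2 differences of 9.14 to 3.60, and smaller for Spag5 (-3.03, standard error 0.47, adjusted p = 1.3e-06). Among them was Cenpf, with 1.28, 1.38, 5.33, 0.692 and 1.69 CPM in hindbrain GLASTneg controls and 0 to 2.82 CPM (median 1.70) at Ech, against the rise in spinal cord given above (difference 5.60, 1.29, 0.0016). Uhrf1 was at 0 in every hindbrain GLASTneg library at Ech, and had 0, 0, 0, 0 and 1.12 CPM in controls. Kif23 had 1.70, 0, 0, 0.346 and 1.69 CPM there in controls and 0 to 1.37 CPM at Ech, and Cdc6 had 0, 0, 0, 0 and 2.81 CPM and 0 to 1.71 CPM. Their fitted differences rest on few counts and are no bounds. Without control replicate 5 of hindbrain GLASTneg or control replicate 4 of spinal cord, 5 in place of 8 members were called, and with the number in the title brackets, which some libraries of different populations share, as a random block in limma voom 20 were. The consensus correlation of libraries sharing that number was 0.0384. The test changed along with the block, so that their parts in this count cannot be told apart.

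Against hindbrain GLASTpos astrocytes, where 12.6% of all genes were called (3.99% positive, 8.63% negative), the difference was positive for Cdc6, the spindle kinesin Kif11, Cenpf, Mcm2, Tpx2, Mcm7, Mcm3 and Ccnd1 and negative for Spag5 (-2.63, standard error 0.48, adjusted p = 3.8e-05). Cdc6 had 1.64, 0, 0, 0 and 0 CPM in these controls and 0, 0, 0 and 0.246 CPM at Ech. Kif11 had 0.409, 0, 0, 4.32 and 0.245 CPM in controls and 0.383, 0, 0 and 0 CPM at Ech, while in spinal cord it had 0, 6.89, 4.87, 0 and 0 CPM and 11.0 to 33.9 CPM (median 18.9). Kif11 had not passed the test against its own controls in spinal cord (2.97, 1.20, adjusted p = 0.072), and its difference between populations was 6.17 (2.03, 0.031). For Cenpf, with 2.45, 0, 5.22, 0 and 0 CPM in controls and 1.53, 0, 0 and 2.95 CPM at Ech, the difference was 5.58 (1.37, 0.0026). With DESeq2 14 and with the random block 20 in place of 9 members were called here. Mcm2, Cenpf, Cdc6 and Spag5 were called in both interactions, which share the spinal cord libraries. All 9 astrocyte markers were called in both too, each with a negative difference (median log2 difference -3.737 against GLASTneg and -3.498 against GLASTpos). Of 6 oligodendrocyte precursor markers 0 were called in either. Their mean sum in hindbrain GLASTpos was 26.83 CPM in controls and 90.35 CPM at Ech (2 called higher). In hindbrain GLASTneg it was 34.58 and 78.05 CPM (0 called). The part of these cell types in the differences was not tested.

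Among unimmunized controls, hindbrain GLASTpos astrocytes differed from GLASTneg ones in 10.5% of all genes (3.4% higher, 7.06% lower). Of the 46 members 5 were called, 2 higher and 3 lower, a share near that of all genes. Mcm4 was higher (log2 fold change 1.91, standard error 0.40, adjusted p = 0.00028), with 41.7, 36.8, 40.1, 55.9 and 19.1 against 8.07, 11.5, 14, 8.31 and 10.1 CPM, without overlap. Mcm5 was higher as well, by a ratio of 7.72 (2.43 to 39.2) from 35 against 3 counts. Lower were Ccnd2, with 11.4, 4.93, 15.0, 11.2 and 0 against 47.2, 48.3, 32, 26 and 36.5 CPM (-2.17, 0.54, 0.0028), Ezh2 (-1.06, 0.35, 0.032) and Birc5, with 0 counts against 20 (at least 10.1-fold lower than the GLASTneg level). Between control spinal cord and hindbrain GLASTneg astrocytes, where 4.2% of all genes were called (2.62% higher, 1.58% lower), 2 of the 46 members were called, again near the share of all genes. Ccnd1 was higher in spinal cord (3.81, 0.62, 6.6e-06), with the levels above against 2.98, 3.68, 5.99, 2.08 and 1.69 CPM. Mcm5 was higher there by a ratio of 12.9 (4.15 to 64.4). Without hindbrain GLASTneg replicate 2 only 1 of these calls was made. The labels also give each library a number, whose meaning is not stated. It is at most 56 in every hindbrain GLASTneg library and above 56 in every hindbrain GLASTpos and every control spinal cord library, so that in both of these comparisons the populations and the library numbers cannot be told apart.

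Cultured neonatal astrocytes were compared with the 15 isolated libraries of adult astrocytes as a whole, which does not depend on the names of the isolated groups. In culture 37 of 46 members were called higher (24 of 26 mitotic, 11 of 18 S phase, both G1 cyclins) and Spag5 lower, while 31.7% of all 17126 genes were called (23.3% of all genes higher, 8.38% lower). The count filter passed all 46 members in this fit, but 30 in the isolated libraries alone (14 of 26 mitotic, 14 of 18 S phase). The others were tested only through their cultured counts. Their calls as higher are thus no separate result, and these counts do not compare the classes. The same holds for part of the other gene lists below. The median log2 fold change was 5.71 for mitotic genes (5.58 with a gene absent from isolated libraries at its bound) and 2.77 for S phase genes, against 0.43 for all genes. With the stricter filter filterByExpr, under which 28 members could be tested, 23 in place of 38 were called. Members with every cultured library above every isolated one numbered 27, against 13.6% of all genes. Strain, age, region, cell sorting, the method of RNA extraction, sequencing depth and culture differ together between these groups, and their effects cannot be told apart. Cultures came from cerebrum and were not sorted, while isolated cells came from forebrain, hindbrain and spinal cord.

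**Figure D5:**
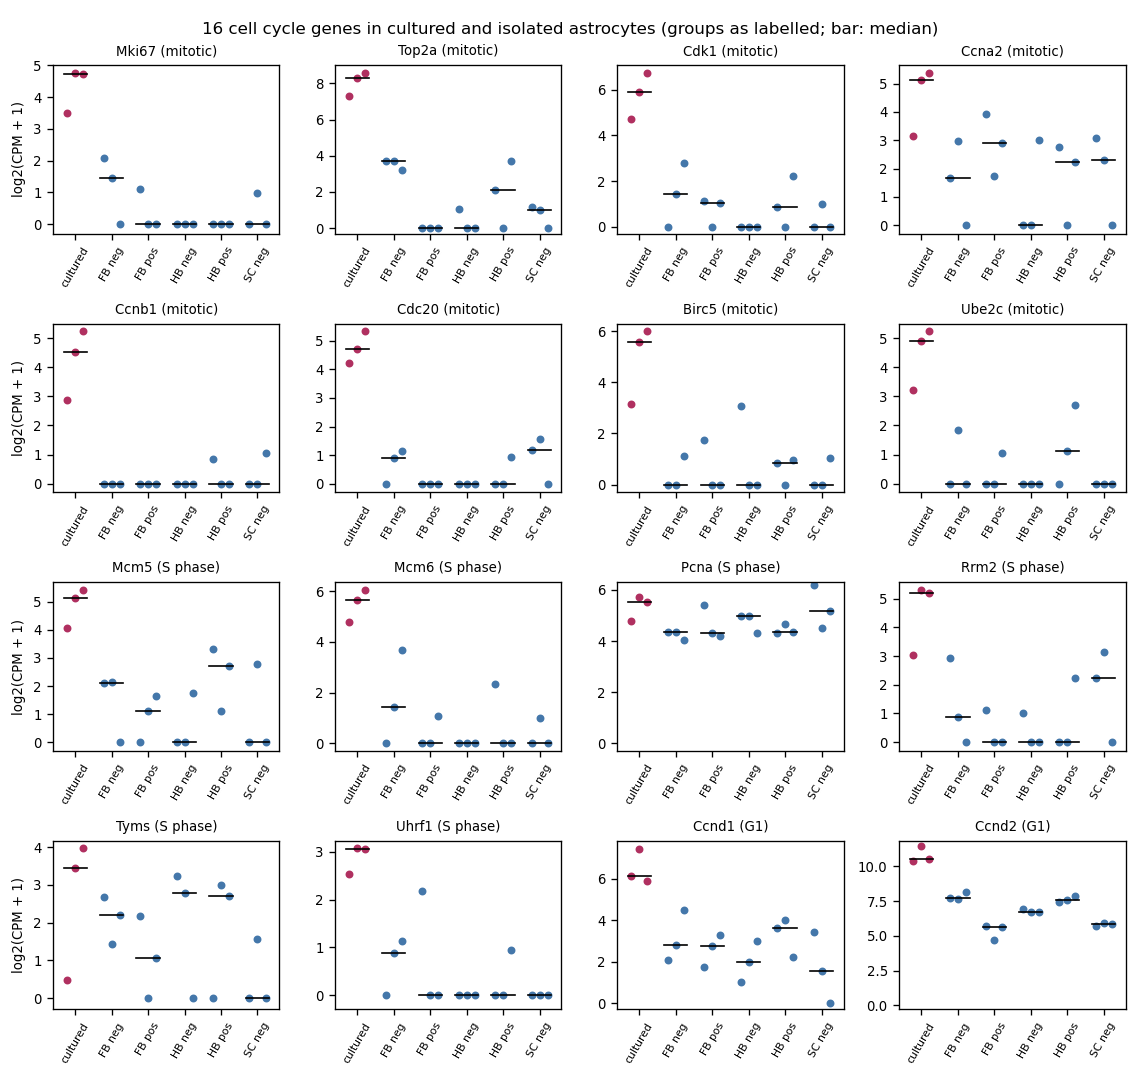
Expression as log2(CPM + 1) of 16 cell cycle genes in the 3 cultured libraries and in the 15 isolated libraries by label, where points are libraries and bars are medians. Cultured libraries lie above all isolated ones for 12 of the genes, whereas Ccna2, Pcna, Rrm2 and Tyms overlap.

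Top2a had 158, 314 and 380 CPM in cultured astrocytes and 0 to 12 CPM in the 15 isolated libraries, 7 of which were at 0 (log2 fold change 7.96, standard error 0.40, adjusted p = 7.5e-20). Ccnb1 had 6.37, 22.1 and 36.8 CPM against 2 counts in all isolated libraries, a ratio of 164 (45.0 to 1357), and Kif23 had 9.95, 33.5 and 26.2 CPM against 3 counts, a ratio of 125 (42.4 to 607). Mitotic genes at or near 0 in the adult astrocytes were thus well counted in culture. Mki67 had 10.3, 26.2 and 25.2 CPM against 0 to 3.27 CPM (6.17, 0.94, 1.2e-06), Cdk1 25.1, 59.3 and 105 CPM against 0 to 5.98 CPM (6.61, 0.67, 1e-10) and Cdc20 17.9, 25.2 and 39.2 CPM against 0 to 1.97 CPM (6.58, 0.87, 8.3e-08). The first cultured library was the lowest for most of these genes. Ube2c (8.35, 28.9 and 36.8 against 0 to 5.54 CPM) and Birc5 (7.96, 46.8 and 62.7 against 0 to 7.32 CPM) were higher in every cultured library, and Ccna2 (7.96, 34.2 and 40.6 against 0 to 14 CPM) overlapped through the first one. The mitotic genes Ccnb2, Prc1, Cenpa, Melk, Bub1 (at least 22.8-fold higher), Aurka, Aurkb, Ect2, Kif11, Bub1b, Nusap1, Cenpe, Cenpf, Tpx2 and Plk1 were called as well. Kif20a was not called (2.11, 1.15, adjusted p = 0.15).

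Among S phase genes, Mcm6 had 26.6, 49.1 and 64.9 CPM in culture against 0 to 12 CPM (log2 fold change 6.21, standard error 0.77, adjusted p = 1.3e-08) and Mcm5 15.9, 33.8 and 41.6 CPM against 0 to 8.97 CPM (4.07, 0.72, 1.4e-05). Rrm2 had 7.16, 38.4 and 35.8 CPM against 0 to 7.88 CPM (4.43, 0.79, 1.7e-05), and Uhrf1 4.77, 7.43 and 7.41 CPM against 0 to 3.51 CPM (4.51, 1.12, 0.0014). Rrm2, which did not pass the test in spinal cord at any stage, was among the called genes here. Cdt1 (7.03), Cdc6 (4.4), Mcm2 (4.37), Ccne1 (3.63), Mcm3 (3.06), Mcm7 (2.48) and Rrm1 (1.42) were higher too. Pcna, with 26.6, 52.5 and 45.2 CPM against 15.5 to 71.9 CPM, was not called (0.69, 0.38, 0.16), nor was Tyms, with 0.398, 9.83 and 14.6 CPM against 0 to 8.37 CPM (1.76, 0.92, 0.14). Ccne2, Mcm4, Tk1, Gmnn and Ezh2 also missed the threshold, with log2 fold changes of 0.36 to 1.31 and adjusted p of 0.087 to 0.79.

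Both G1 cyclins were higher in culture. Ccnd2 had 1315, 2868 and 1481 CPM against 24.6 to 281 CPM in isolated libraries (log2 fold change 4.18, standard error 0.17, adjusted p = 3.7e-23), and Ccnd1 69.2, 174 and 58.7 CPM against 0 to 21.5 CPM (4.10, 0.46, 7.6e-10). In chronic spinal cord only Ccnd1 had been called. Spag5 had 4.38, 6.63 and 8.21 CPM in culture and 1.16 to 79.9 CPM in isolated libraries (-1.67, 0.57, 0.018), with overlap, and Aldoc averaged 437 ± 87 CPM in culture. Of the other lists, 22 of 25 mitosis genes tested, 11 of 18 replication genes, 7 of 17 regulators of G1 and E2F, 3 of 9 of G2 and M and 5 of 7 CDK inhibitors were higher in culture, where 23.3% of all genes were, among the last Cdkn1a (2.49, 0.22, 9.3e-13), Cdkn2a and Cdkn2b. Marker sums of other cells differed as well. Myeloid markers summed to 836, 489 and 3825 CPM in the cultured libraries and to 19 to 359.6 CPM in the isolated ones, with 12 of 13 called higher, and ependymal markers to 1462, 773 and 933 CPM against 34.2 to 954 CPM (4 of 5 higher). Neural stem cell markers summed to 506 to 766 CPM in culture and 32.9 to 254 CPM in isolated libraries (2 of 3 higher, 1 lower), and endothelial markers to 218 to 259.8 CPM and 0 to 34.7 CPM (1 higher and 1 lower of 4 tested). Leaving out cultured replicate 3, which had the highest myeloid sum, left 37 members called. The part of these cells in the result was not tested.

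Among isolated astrocytes the members were mostly near the floor, and 30 of 46 could be tested. The mitotic sum without Spag5 was 4.38 to 75.7 CPM in the 15 libraries and the S phase sum 106 to 244 CPM. When each labelled group was set against the average of the remaining ones, Ccnd2 was the member called most often. It had 207, 199 and 281 CPM in libraries labelled forebrain GLASTneg (log2 fold change 1.42, standard error 0.23, adjusted p = 3.8e-06, 1.18% of all genes called) and 169, 192 and 237 CPM in those labelled hindbrain GLASTpos (1.19, 0.23, 0.00013, 2.49%). It was lower, at 51.4, 24.6 and 49.6 CPM, in libraries labelled forebrain GLASTpos (-1.63, 0.28, 3.4e-05, 1.94%) and, at 52.1, 59.1 and 58.0 CPM, in those labelled spinal cord GLASTneg (-1.11, 0.27, 0.0024, 7.54%). Libraries labelled hindbrain GLASTneg, with 123, 107 and 104 CPM, lay between. The order of levels by label was thus forebrain GLASTneg and hindbrain GLASTpos, whose ranges overlapped, then hindbrain GLASTneg, then the other two, whose ranges did not overlap. The other listing of these counts names the libraries labelled hindbrain GLASTpos as forebrain GLASTpos, and those labelled forebrain GLASTpos as hindbrain GLASTneg. By its names the order would be both forebrain groups, then spinal cord, then both hindbrain groups. In the libraries labelled hindbrain GLASTneg, 4.41% of all genes were called, and of the members Mcm3, with 0, 0 and 2.35 CPM against 1.17 to 35.6 CPM elsewhere (-4.27, 1.34, 0.04). This call was lost without any one of 7 libraries (labelled hindbrain GLASTneg 1 or 2, forebrain GLASTneg 2 or 3, forebrain GLASTpos 3, hindbrain GLASTpos 1 or 3), which left 0. A second member was called in libraries labelled hindbrain GLASTpos without hindbrain GLASTneg replicate 2 or spinal cord replicate 3, and in those labelled spinal cord without hindbrain GLASTneg replicate 3, which made 2 each. No other member was called in the fit of all isolated libraries, and given the conflict between labels and Hox genes no region is assigned to them here.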

How the data were processed

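RNA had been sequenced with a 3′ method (QuantSeq, single reads of 50 bases). Per the labels and the study's methods, the authors aligned reads to GRCm38 with HISAT 0.1.5 and counted them per gene with HTSeq 0.6.1p1, and the deposited values are raw counts. Whether counting used strand is not given in the sources used here. Genes reaching 10 counts summed over a fit were tested with edgeR 4.0.16 (R 4.3.3), by two-sided quasi-likelihood tests on TMM-scaled counts, in 1 fit of the 66 EAE libraries, 1 of the 18 subtype libraries and 1 of the 15 isolated ones. P values were adjusted by Benjamini-Hochberg over all genes of a comparison, and called means adjusted p under 0.05 with a log2 fold change beyond 1. What is given as standard error is the absolute log2 fold change divided by the square root of the quasi-likelihood F value. It was not estimated by the fit itself, and is rough for genes with few counts or fold changes near 0. CPM levels, sums and ratios of counts used TMM-scaled library sizes, and floors in CPM the unscaled totals. The step was tested on simulated data, with changes set only in genes that averaged at least 10 counts per library. For EAE it used the spinal cord libraries alone. That check does not cover genes near the floor, which many members are in controls. Counting intervals (95%, exact) and the floor of 3 counts cover counting error only. All members were named, 16 fixed ones with their values by library in spinal cord and culture (ranges for groups above 5 libraries), and so were the called members, those with the largest changes with their values. Members and lists were chosen with earlier results of these data known. Alternatives were DESeq2 1.42.0, other size factors and filters, a replicate block, covariates and leaving out each library, which kept the dispersion trend of the full fit.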

Additional observations from a re-analysis of the deposited data

Results flagged for a closer look

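Among 168 sets of libraries, each 1 gene or sum in 1 EAE group, 16 held a library that stood apart from the others of its group. The rule flags about 1 in 20 sets of independent, normally distributed values. Levels of genes with few counts are skewed and the sums hold some of the same genes, so that this rate need not apply and no excess is read from it. In each flagged set the library was the highest of its group. In hindbrain GLASTpos astrocytes at E4, replicate 1 had 117 CPM of Top2a, 26.4 CPM of Birc5, 17.2 CPM of Ube2c and a mitotic sum without Spag5 of 323 CPM, and its T cell marker sum was 821 CPM. Replicate 6 of that group had 87.6 CPM of Pcna. In spinal cord, single libraries stood apart at E1 (Ccnb1, 21.6 CPM, replicate 5), at E4 (Cdk1, 27.1 CPM, replicate 1; Ccna2, 16.6 CPM, and Ccnd2, 99.7 CPM, replicate 2) and at Ech (Mki67, 104 CPM, replicate 5; Pcna, 111.5 CPM, replicate 1). E4 replicate 2 also had the myeloid sum of 6984 CPM. Among controls, these were Ccnd2 in spinal cord (107.7 CPM, replicate 4), Tyms in hindbrain GLASTneg (13.3 CPM, replicate 3) and GLASTpos (8.81 CPM, replicate 3) and Mcm6 in hindbrain GLASTpos astrocytes (9.85 CPM, replicate 2). Mcm6 in hindbrain GLASTneg astrocytes at Ech had 7.67 CPM in replicate 3.

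The change from control to Ech differed between spinal cord and hindbrain GLASTneg astrocytes for 8 members by an interaction test in edgeR. The log2 differences were 9.14 for Uhrf1, 8.0 for Kif23, 6.91 for Cdc6, 5.95 for Mki67, 5.60 for Cenpf, 4.94 for Birc5, 3.60 for Mcm2 and -3.03 for Spag5. Against hindbrain GLASTpos astrocytes 9 members differed, with 8.48 for Cdc6, 6.17 for Kif11, 5.58 for Cenpf, 4.15 for Mcm2, 3.43 for Tpx2, 3.41 for Mcm7, 2.55 for Mcm3, 2.36 for Ccnd1 and -2.63 for Spag5. The part of other cell types in these differences was not tested.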

How the results depend on the processing

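Counts of called members in the 3 spinal cord comparisons with controls stayed within 1.5 times under DESeq2, other size factors and other filters. DESeq2 called 2, 1 and 2 members in hindbrain GLASTneg at E1 and Ech and GLASTpos at Ech (edgeR 0 each), 2 between Ech and E4 (1), 14 in the interaction with hindbrain GLASTpos (9) and 2 in isolated libraries labelled hindbrain GLASTpos (1). Without a filter the first 4 counts were 2, 1, 2 and 2. RLE size factors gave 1 at hindbrain GLASTpos Ech, and filterByExpr gave 1 there, 8 between control hindbrain populations (5) and 23 in culture (38). Spinal cord libraries alone gave 13 at E1 (8) and 4 between Ech and E4, and the library number of the labels, split at 56, as a covariate 0 there. With this covariate the Ccnd2 log2 fold change, spinal cord GLASTneg, Ech against E4, was -0.0901. The Uhrf1 log2 fold change, spinal cord GLASTneg, E4 against control, was not called with it (4.95) or with DESeq2 (5.003). Adjusted p values that DESeq2 gave as NA were left out. A random block of the number in the title brackets (limma voom) gave 20 and 20 in the interactions (8 and 9) and 1 between control spinal cord and hindbrain GLASTneg (2). Here the test changed along with the block, whose consensus correlation was 0.0384, and their parts cannot be told apart. Without hindbrain GLASTpos libraries above 100 CPM of T cell markers, chosen after seeing the data and also highest in mitotic sums, counts were 0 at E1 and 3 at E4. The cause was not tested.

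Same-numbered libraries did not deviate together (mean r -0.0038 in EAE, -0.0115 in the subtype experiment), so that the replicate number was not taken to pair libraries. Libraries of the same stage with the same first number in the title brackets had a mean r of 0.0402, and 8 of 40 such pairs were above 0.1, against 107 of 1654 pairs of different replicate number. The replicate block gave 30 called members in spinal cord at Ech (30 without), 16 at E4 (17) and 9 at E1 (8), 1 in hindbrain GLASTneg at E1, 1 in hindbrain GLASTpos at Ech, and 2 in isolated libraries labelled hindbrain GLASTpos.

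Leaving out 1 library at a time gave 5 to 11 called members in spinal cord at E1, 12 to 19 at E4, 26 to 30 at Ech, 0 to 1, 0 to 2 and 0 to 0 in hindbrain GLASTneg at E1, E4 and Ech, and 2 to 6, 3 to 5 and 0 to 1 in GLASTpos. Ranges were 5 to 9 and 6 to 11 for the interactions with hindbrain GLASTneg and GLASTpos, 4 to 7 and 1 to 3 for control hindbrain GLASTpos and spinal cord against hindbrain GLASTneg, 36 to 39 in culture, and 0 to 1, 1 to 2 and 1 to 2 for isolated libraries labelled hindbrain GLASTneg, hindbrain GLASTpos and spinal cord. Tyms at Ech changed sign (-0.21 to 0.68), as did Pcna between Ech and E4 (-0.43 to 0.38). At 1313682 to 4895220 counts per EAE library, genes of a few CPM, which many members are in controls, have wide intervals.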
